A study of Rattus norvegicus with 8 samples.

Results

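Neurotrophin and nerve guidance genes were examined in primary rat nucleus pulposus (NP) cells, which make up the soft centre of the intervertebral disc, after lentiviral knockdown of Sirt6. The members are 9 genes chosen by name: the neurotrophin Bdnf, the secreted guidance ligands Slit2, Ntn1, Sema3a, Sema3c, Sema3d and Sema3e, and the semaphorin receptors Nrp1 and Nrp2. All 9 passed the count filter, out of 13250 genes tested. The Sirt6-KD group held 4 libraries (S5 to S8) of cells given a mixture of 3 ShSirt6 lentiviral clones, and the Sirt6-Ctrl group held 4 libraries (S1 to S4) of cells given ShCtrl. All 8 libraries came from cells of adult Sprague Dawley rats, grown in DMEM with serum, and both groups went through transduction and puromycin, so neither is an untreated control. The series text describes cells of 4 rats with a control for each, but no label ties a Sirt6-KD library to a Sirt6-Ctrl library, and the study's methods describe low-oxygen culture after transduction for cells taken for protein, without saying whether the cells taken for RNA were handled alike.

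Guidance cues steer growing axons by attraction or repulsion, and most of them also act on vessels and on cell migration. Class 3 semaphorins are secreted proteins that bind neuropilins, which signal together with plexins, while the neuropilins also bind VEGF. Netrin-1 attracts axons through Dcc and neogenin and repels them through Unc5 receptors, and Slit proteins repel axons through Robo receptors. BDNF is a neurotrophin, which keeps sensory neurons alive through the TrkB receptor. The inner disc normally holds few nerves, and nerve ingrowth is known from degenerated, painful discs.

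Between 31994838 and 40124813 reads were counted per Sirt6-Ctrl library and between 32382957 and 36600792 per Sirt6-KD library, and a count of 3 corresponded to 0.0727 to 0.0928 CPM. Sirt6 itself averaged 52.7 ± 3.78 CPM in the controls against 20.6 ± 1.07 CPM after knockdown (mean ± SD, n = 4 each). Synthetic ERCC spike-in RNA made up 6.27% of S1, 9.80% of S2, 3.08% of S3 and 2.97% of S4, against 2.15% to 2.47% in Sirt6-KD. The groups did not overlap (exact two-sided permutation p = 0.0286, the smallest that 4 against 4 can give). S1 or S2 was also the lowest Sirt6-Ctrl library for 9 of the 9 members, and both lay below both S3 and S4 for 6 of them. The share of all genes with either order was not counted. Because of the spike-in shares, values without S1 and S2 are given beside many of the results. S3 and S4 still held a higher spike-in share than any Sirt6-KD library. The part of the spike-in share in the members' levels was not tested. NP and cartilage genes such as Acan, Sox9, Foxf1 and Pax1 were read in every library, while Tbxt, Krt18, Krt19 and Col2a1 of the same list had no row by name. Of 14 NP markers 10 were tested, with Krt8 (log2 fold change -1.32) and Ca3 (-2.70) called lower and 0 called higher. The 10 summed to 401 to 504 CPM in Sirt6-Ctrl against 462 to 537 in Sirt6-KD, with Basp1 the largest part (175 and 186 CPM on average). The list moved in both directions, with 4 of 10 log2 fold changes positive. Among uncalled genes, Ca12 had 1.53 and Cd24 -0.98 (adjusted p = 0.0776 and 0.0537, edgeR). The 8 neuron markers with a row summed to 19.8 to 40.6 CPM in the controls and 20.02 to 31.4 CPM in the knockdown libraries, with 0 called. Of 3 Schwann cell markers tested, S100b was called lower, at 194 ± 43.3 and 78.4 ± 22.3 CPM (mean ± SD, n = 4 each), so the list summed to 135 to 234.6 and 65.9 to 114 CPM, while Sox10 and Pmp2 had no row by name. The macrophage markers Cd68 and Csf1r summed to 1.48 to 3.28 and 2.76 to 5.17 CPM. The part of these markers in the results was not tested. Of the endothelial markers, Egfl7 was read at 24.5 CPM in the controls and 18.9 CPM in the knockdown libraries on average, Tek was below the count filter, and the 2 summed to 17.5 to 28.5 and 16.3 to 22.3 CPM. The endothelial markers Pecam1, Cdh5, Tie1, Vwf and Emcn and the leukocyte marker Ptprc had no row under these names in the authors' table, whose lowest count sum over the libraries was 81. In bulk RNA, more cells that express a gene and more RNA per cell cannot be told apart.

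Slit2, Ntn1, Sema3c and Nrp2 were higher in Sirt6-KD, and Bdnf was at about the same level in both groups. Calls needed more than a 1.5-fold change together with an adjusted p under 0.05 by edgeR's quasi-likelihood test, adjusted after Benjamini and Hochberg across the whole table. By this rule 4 of 9 members were called higher, where 8.02% of all genes tested were, and 0 of 9 were called lower, where 10.7% of all genes were. DESeq2 and limma-voom each called 5 members higher and 0 lower. Over all genes limma-voom called 1591 of 13250 higher and 1309 lower. DESeq2 called 1587 higher and 1721 lower of 18758 genes with a fold change. That total keeps any gene without an adjusted p, so it can understate the DESeq2 shares. At an unadjusted p under 0.05, 0 members were lower by edgeR, DESeq2 or limma-voom, and the share of all genes at that p was not counted. The median log2 fold change was 0.87 over the members and -0.016 over all genes. Every Sirt6-KD library lay above every Sirt6-Ctrl library for 4 of 9 members, against 14.8% of all genes tested. Since the members were chosen with earlier results of these data known, these shares describe them and support nothing further.

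**Figure D1:**
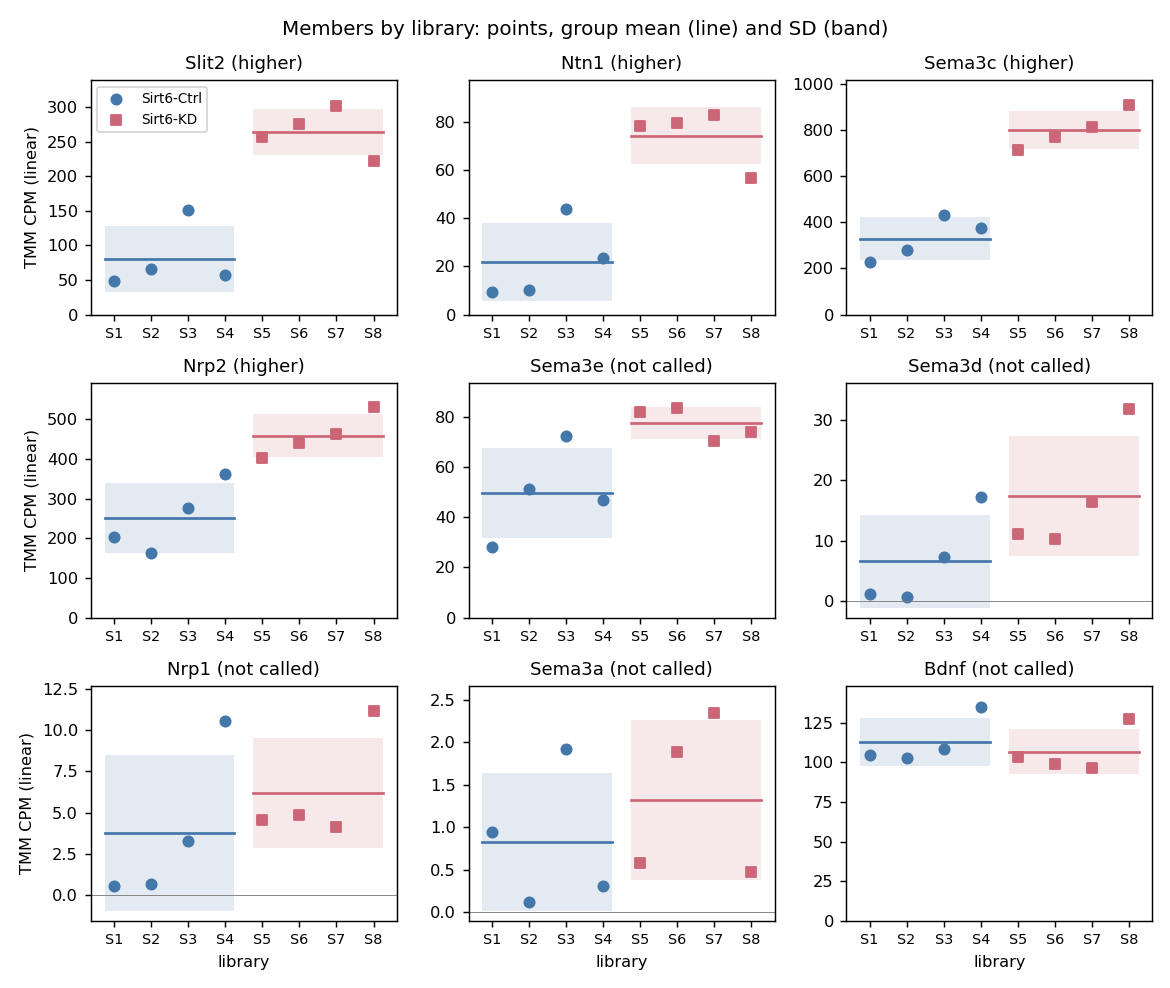
Level of each member in each library as TMM-normalized CPM on linear axes, with the 4 Sirt6-Ctrl libraries (S1 to S4, circles) and the 4 Sirt6-KD libraries (S5 to S8, squares); lines are group means and bands 1 SD. Slit2, Ntn1, Sema3c and Nrp2 show no overlap between the groups, while S4 and S8 stand highest in their groups for Nrp1, Sema3d and Bdnf.

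Slit2, a secreted repellent of axons that binds Robo receptors, was read at 48.6, 66.0, 151 and 56.6 CPM in S1 to S4 and at 256, 275, 301 and 222 CPM in S5 to S8. The highest control, S3, was still below the lowest knockdown library, S8. The control mean was 80.5 ± 47.4 CPM and the knockdown mean 264 ± 33.1 CPM (SD, n = 4 each), for a log2 fold change of 1.71 (± 0.32 SE, edgeR adjusted p = 0.00756). In the 8 fits that dropped 1 library the Slit2 value stayed between 1.55 and 2.21 and the call held each time. Without S1 and S2 it was 1.35 (edgeR adjusted p = 0.0348).

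Ntn1, which encodes netrin-1, had 9.48, 10.4, 44.0 and 23.5 CPM in S1 to S4 and 78.1, 79.6, 82.9 and 56.7 CPM in S5 to S8. The controls spread over a 4.64-fold range, and the knockdown libraries over a 1.46-fold range above them. The log2 fold change was 1.77 (± 0.44 SE, edgeR adjusted p = 0.0189), the largest among the members. It was 1.15 without S1 and S2 (edgeR adjusted p = 0.0258), and the call was lost without S1, S5, S6 or S7 alone (adjusted p = 0.0501, 0.0519, 0.0549 and 0.0533, edgeR) at log2 fold changes from 1.53 to 1.74.

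Among the class 3 semaphorins, Sema3c, whose protein binds both neuropilins, was read at 229, 279, 434 and 376 CPM in S1 to S4 and at 713, 773, 812 and 909 CPM in S5 to S8. The lowest knockdown library, S5, was far above the highest control, S3. Its mean was 329 ± 92.8 CPM without and 802 ± 82.5 CPM with the knockdown (SD, n = 4 each). The log2 fold change was 1.28 (± 0.20 SE, edgeR adjusted p = 0.00412), the smallest adjusted p among the members. It kept its call in the fits that left out 1 library (1.17 to 1.44) and without S1 and S2 (0.995, edgeR adjusted p = 0.00563).

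Sema3e, which signals through plexin D1 and needs no neuropilin for it, had 28.3, 51.4, 72.2 and 46.7 CPM in S1 to S4 and 82.0, 83.6, 70.2 and 73.9 CPM in S5 to S8. S3 lay above S7, so the groups overlapped by that pair. The log2 fold change of 0.64 (± 0.24 SE, 95% confidence interval 0.12 to 1.17, edgeR adjusted p = 0.0768) was not called. Sema3e was called with DESeq2 (adjusted p = 0.0481), with limma-voom (adjusted p = 0.0409) and without S3 (0.88, edgeR adjusted p = 0.0107). Its value was 0.39 without S1 and S2 (edgeR adjusted p = 0.182).

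Sema3d, a ligand of Nrp1, went from 0.557 CPM in S2 and 1.12 CPM in S1 to 7.3 CPM in S3 and 17.2 CPM in S4, a 30.9-fold range among the controls. The knockdown libraries held 11.1, 10.2, 16.3 and 31.9 CPM in S5 to S8, so S4 lay above S5, S6 and S7. Its log2 fold change of 1.41 had a 95% confidence interval from -0.49 to 3.31 (edgeR adjusted p = 0.265) and was 0.52 without S1 and S2, 2.54 without S4 (edgeR adjusted p = 0.0551) and 2.23 with limma-voom (adjusted p = 0.0733). Sema3a, the class 3 semaphorin best known for repelling sensory axons, was near the detection limit, with 33, 4, 65 and 13 reads in S1 to S4 and 20, 63, 90 and 16 in S5 to S8. The groups overlapped almost fully, and the log2 fold change of 0.68 (95% confidence interval -1.39 to 2.75, edgeR adjusted p = 0.644) had an interval on both sides of 0. It was 0.26 without S1 and S2, 1.51 without S3 and 0.25 without S7.

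Within each library Sema3c took most of the reads of the 4 semaphorin members, 84.2% to 88.3% in Sirt6-Ctrl and 88.4% to 90.1% in Sirt6-KD. The share of Sema3e was 10.6% to 15.5% in Sirt6-Ctrl and 7.27% to 10.2% in Sirt6-KD. These shares do not depend on how the libraries are scaled, and the groups did not overlap in either of them, though for both genes the gap was under 1 percentage point. For Sema3c it lay between S1 at 88.28% and S5 at 88.38%. Sema3c and Sema3e hold nearly all of these reads, so their shares mirror each other and are not separate observations. They are shares of reads and not of molecules, since the genes' transcript lengths were not used.

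Of the neuropilins, Nrp2 was called and Nrp1 was not. Nrp2 was read at 202, 163, 276 and 363 CPM in S1 to S4 and at 402, 439, 462 and 529 CPM in S5 to S8. All 4 knockdown libraries were higher, with S4 closest to them. The means were 251 ± 88.0 and 458 ± 53.6 CPM (SD, n = 4 each), giving a log2 fold change of 0.87 (± 0.23 SE, edgeR adjusted p = 0.0238). The call was lost without S1 and S2 (0.53, edgeR adjusted p = 0.0563), and without S1, S5, S6, S7 or S8 alone (adjusted p from 0.0506 to 0.0753, edgeR), at log2 fold changes from 0.80 to 0.93.

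Nrp1 had 19, 22, 111 and 436 reads in S1 to S4, or 0.546, 0.680, 3.27 and 10.6 CPM, and 4.57, 4.87, 4.15 and 11.1 CPM in S5 to S8. S4 lay above 3 of the 4 knockdown libraries. Its log2 fold change of 0.71 (95% confidence interval -1.13 to 2.55, edgeR adjusted p = 0.579) changed to -0.15 without S1 and S2, to 2.04 without S4 (edgeR adjusted p = 0.0728) and to 0.28 without S8. The difference in response between Nrp1 and Nrp2 was not tested. The ratio of Nrp1 to Nrp2 reads in a library was 0.00271 to 0.0291 in Sirt6-Ctrl and 0.00897 to 0.0210 in Sirt6-KD, with overlap.

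Bdnf was read at 105, 103, 109 and 135 CPM in S1 to S4 and at 104, 99.3, 96.6 and 128 CPM in S5 to S8. The groups lay over each other, with S4 and S8 the highest of each, and each group spanned a 1.32-fold range, the narrowest of the members in the controls. The log2 fold change was -0.08 (± 0.14 SE, edgeR adjusted p = 0.723), and its 95% confidence interval of -0.39 to 0.23 did not reach a fold change of 1.5 in either direction. Without S1 and S2 the value was -0.18 (edgeR adjusted p = 0.457). Bdnf had 3319 to 5577 reads per library.

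**Figure D2:**
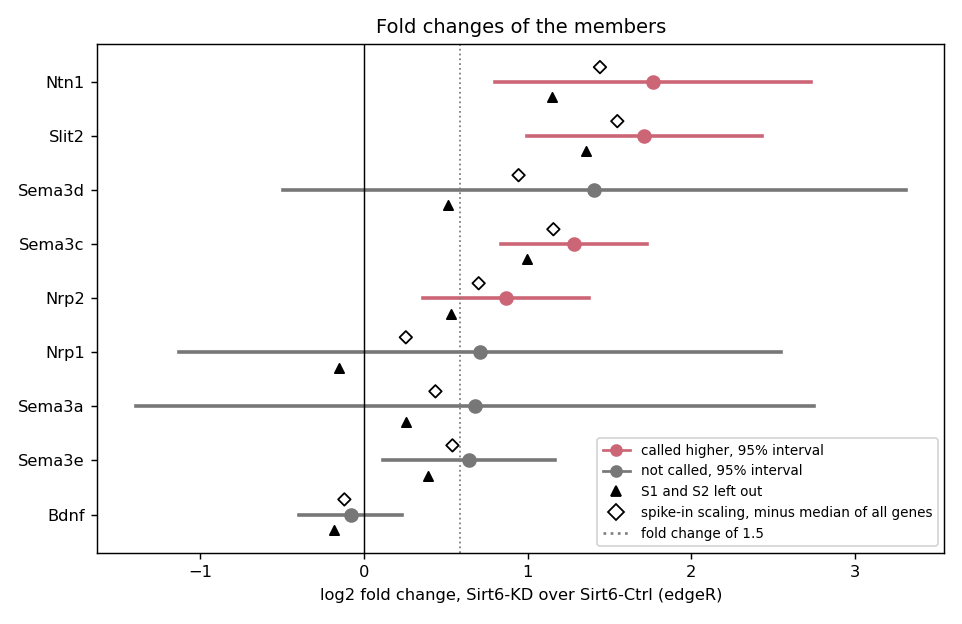
Log2 fold change of each member, Sirt6-KD over Sirt6-Ctrl, from edgeR, with bars for the 95% confidence interval of the fit to all 8 libraries; triangles leave out S1 and S2, and open diamonds are values from spike-in scaling minus the median of all genes. Ntn1, Slit2, Sema3c and Nrp2 (called higher) have intervals above 0, as does Sema3e, which was not called (0.12 to 1.17). Nrp1 is the only member whose triangle lies on the other side of 0.

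Scaling to the spike-in counts raised the values of all members, though not by the same amount. With scaling to the spike-in counts, all genes had a median log2 fold change of 0.94, and the values of the members were 0.83 for Bdnf, 2.49 for Slit2, 2.39 for Ntn1, 2.10 for Sema3c and 1.65 for Nrp2. After subtraction of that median they were -0.12 for Bdnf, 1.55 for Slit2, 1.44 for Ntn1, 1.16 for Sema3c and 0.70 for Nrp2. For Sema3e, Sema3d, Sema3a and Nrp1 the values were 1.49, 1.89, 1.38 and 1.20, and 0.54, 0.94, 0.44 and 0.26 after the subtraction. No member was called under this scaling (edgeR adjusted p from 0.0723 to 0.356), and over all genes 20 were called higher and 4 lower. By edgeR 5 members were higher and 0 lower at an unadjusted p under 0.05. The share of all genes at that p was not counted. With an all-gene median of 0.94, that direction is not particular to the members.

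Upstream sequence was matched by symbol for 6 of the 9 members, from RefSeq on the GRCr8 assembly, and not for Slit2, Ntn1 and Sema3a. The 150 bases before an annotated start are shown for the semaphorins Sema3c and Sema3e and for the neuropilins Nrp1 and Nrp2, since each pair holds 1 called and 1 uncalled gene. Capitals mark matches to the motifs searched.

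Sema3c (chr4:18699628-18699777, minus strand): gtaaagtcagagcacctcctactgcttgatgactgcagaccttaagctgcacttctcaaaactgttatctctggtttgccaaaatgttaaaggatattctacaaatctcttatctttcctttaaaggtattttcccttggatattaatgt
Sema3e (chr4:21510375-21510524, minus strand): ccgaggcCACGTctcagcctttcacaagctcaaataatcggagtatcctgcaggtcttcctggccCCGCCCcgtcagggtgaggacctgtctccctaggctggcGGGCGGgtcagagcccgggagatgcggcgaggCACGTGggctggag
Nrp1 (chr19:73256407-73256556, plus strand): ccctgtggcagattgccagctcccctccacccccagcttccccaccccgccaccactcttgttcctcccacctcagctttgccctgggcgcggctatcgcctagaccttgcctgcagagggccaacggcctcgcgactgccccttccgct
Nrp2 (chr9:71617104-71617253, plus strand): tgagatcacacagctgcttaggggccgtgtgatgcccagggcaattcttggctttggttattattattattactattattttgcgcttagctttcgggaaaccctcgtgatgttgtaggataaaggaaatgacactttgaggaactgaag

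The motifs were searched on both strands in the 250 bases before each start: AP-1 (TGANTCA), the cyclic AMP response element (TGACGTCA), the TATA box (TATAAA), the CCAAT box (CCAAT), the GC box (GGGCGG), the E-box (CACGTG), the core of the hypoxia response element (ACGTG, which lies inside the E-box) and the TEAD site (GGAATG). The Sema3c and Nrp2 windows held none of them. Over all windows AP-1 was found in 6.34%, the cyclic AMP response element in 1.59%, the TATA box in 12.9% and the TEAD site in 12.1%. The Sema3e window held 2 GC boxes, found in 30.5% of all 33469 windows of that length, 1 E-box (5.59%) and 3 hypoxia response cores (16.6%), 2 of them on the opposite strands of the E-box. The Nrp1 window held 1 CCAAT box (34% of all windows), 201 bases before the start and so outside the stretch shown. Sema3c was AT-rich, with 35.2% G and C and 0 CpG, against 55.6% and 13 in Sema3e, 52.8% and 13 in Nrp2, and a median of 51.2% over all windows. Bdnf has 6 starts in this table, and the counts per gene do not separate them. No binding or accessibility data were analysed here, so a match is a description of the letters and not of a site in use.

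The partners of the members were taken from 13 lists of the same pathways, holding 89 genes with the members included. Of these, 67 were tested, with 16 called higher and 4 called lower. Without the members 12 of 58 were called higher (20.7%, against 8.02% of all genes) and 4 of 58 lower (6.90%, against 10.7%), with a median log2 fold change of 0.52. Without S1 and S2, 8 of the 16 were still called higher and 4 of the 4 lower. Over all genes that fit called 810 of 14177 higher and 709 lower, against 1063 and 1416 of 13250 with all 8 libraries. With 1 library left out the 16 became 5 without S1, 4 without S5, 4 without S6, 5 without S7 and 8 without S8, and 17, 21 and 16 without S2, S3 and S4. Over all genes the 1063 called higher became 552, 491, 445, 477 and 736 in the first 5 of these fits, and 1171, 1699 and 1096 in the other 3. Sema3c, Slit2, Srgap2 and Sorcs2 kept their calls in all 8 such fits, and the other called genes in 2 to 5 of them. With spike-in scaling 0 were called in either direction (edgeR, 34 higher and 1 lower at an unadjusted p under 0.05). The share of all genes at that p was not counted, and their median of 0.94 under this scaling lay on the same side. These counts, and those of the single lists below, are descriptions too, beside 8.02% of all genes called higher and 10.7% lower.

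**Figure D3:**
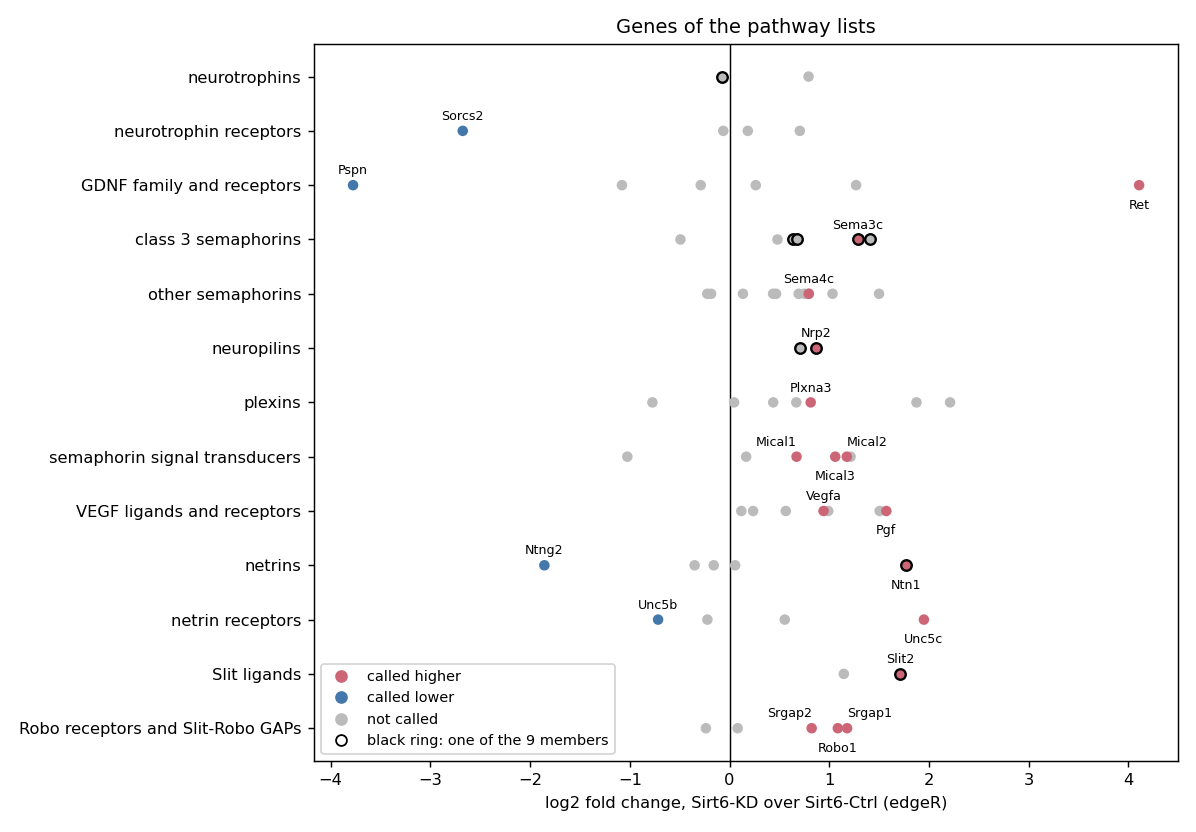
Log2 fold change (Sirt6-KD over Sirt6-Ctrl, edgeR) of each tested gene, 1 row of points per pathway list, with called genes named and coloured and the 9 members ringed in black. Slit and Robo genes that were called lie to the right of 0, and the netrin receptors hold Unc5c to the right and Unc5b to the left, a side that Unc5b leaves with spike-in scaling (0.20).

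Along the Slit pathway, 1 of 2 tested Slit ligands and 3 of 5 tested receptors and Slit-Robo GTPase-activating proteins were called higher, and 0 lower. Robo1, a Slit receptor, had 4.40 to 7.48 CPM in S1 to S4 and 8.68 to 17.3 CPM in S5 to S8, a log2 fold change of 1.09 (edgeR adjusted p = 0.0263). Srgap2 and Srgap1, which inactivate small GTPases downstream of Robo, had log2 fold changes of 0.82 (edgeR adjusted p = 0.00765) and 1.18 (edgeR adjusted p = 0.0251). Srgap2 was called in all 8 fits that left out 1 library, whereas Robo1 and Srgap1 were not called without S1 and S2, at log2 fold changes of 0.88 and 1.04 (adjusted p = 0.0813 and 0.0966, edgeR). Robo2, another Slit receptor, was 25.7 ± 7.18 CPM in the controls and 27.3 ± 8.22 CPM in the knockdown libraries (mean ± SD, n = 4 each) and was not called. Slit3 had a log2 fold change of 1.15 and was not called (edgeR adjusted p = 0.223).

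Among the netrins, Ntn1 was called higher and Ntng2, a membrane-anchored netrin-G, was called lower, of 5 tested. Ntng2 fell from 6.05 ± 2.34 to 1.67 ± 0.77 CPM (mean ± SD, n = 4 each), a log2 fold change of -1.86 (edgeR adjusted p = 0.0227). Ntn4 varied widely, at 37.9 ± 49.2 CPM in the controls and 39.5 ± 28.4 CPM with the knockdown (mean ± SD, n = 4 each), and was not called. Of the 4 netrin receptors tested, 1 was called higher and 1 lower. Unc5b, a repulsive netrin receptor, was 781, 579, 678 and 810 CPM in S1 to S4 and 419, 384, 382 and 548 CPM in S5 to S8, a log2 fold change of -0.72 (± 0.17 SE, edgeR adjusted p = 0.0157), which was 0.20 with spike-in scaling and -0.74 once that scaling's median over the genes was subtracted. Unc5c, of the same family, was 7.38, 0.588, 8.51 and 8.77 CPM in S1 to S4 and 25.6, 23.98, 22.1 and 26.1 CPM in S5 to S8, a log2 fold change of 1.95 (± 0.58 SE, edgeR adjusted p = 0.0373). Without S1 and S2 the log2 fold change was 1.51 for Unc5c and -0.77 for Unc5b (adjusted p = 0.00267 and 0.0214, edgeR).

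The ratio of Unc5c to Unc5b reads, chosen after their values were seen and independent of the scaling, was 0.00946, 0.00102, 0.0125 and 0.0108 in S1 to S4. It was 0.0610, 0.0624, 0.0578 and 0.0476 in S5 to S8, above every control. The ratio of Ntn1 to Unc5b reads was 0.0121 to 0.0648 in S1 to S4 and 0.103 to 0.217 in S5 to S8. Unc5c and Ntn1 were higher, and Unc5b lower, in every Sirt6-KD library than in any control. Neither ratio to Unc5b could therefore have overlapped, and they add nothing to the levels of the single genes. Neo1, the neogenin receptor, had a log2 fold change of -0.22 and was not called (edgeR adjusted p = 0.426), and Dcc had no row under that name in the authors' table.

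**Figure D4:**
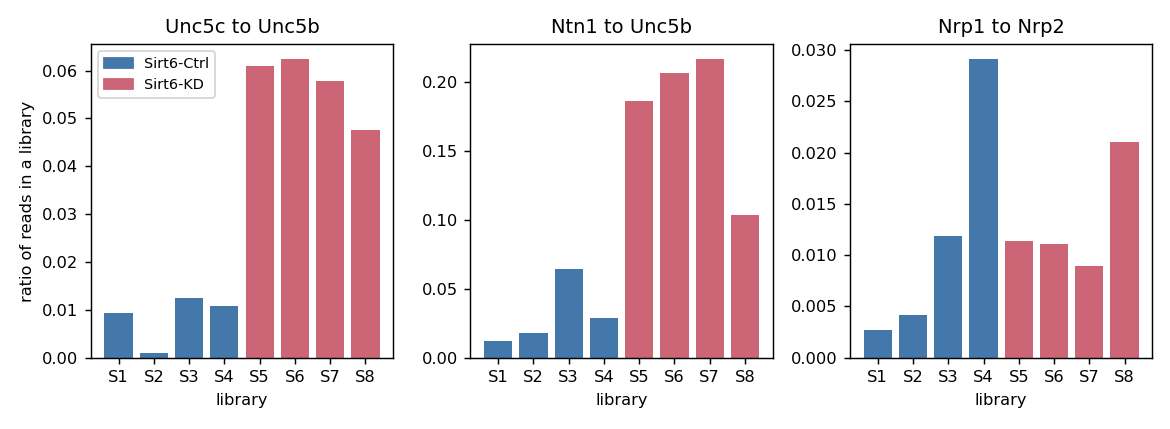
Ratio of the reads of 2 genes within each library, on linear axes from 0, with Sirt6-Ctrl libraries S1 to S4 and Sirt6-KD libraries S5 to S8; levels of 2 genes are not compared per length, only the ratio between libraries. Both ratios to Unc5b are higher in every Sirt6-KD library than in any Sirt6-Ctrl library, which the levels of the single genes already fixed. The ratio of Nrp1 to Nrp2 overlaps.

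In the semaphorin pathway, the class 3 semaphorins that are no members were not called: Sema3b, at a log2 fold change of -0.49 (edgeR adjusted p = 0.0329), was below the fold threshold, and Sema3f had 0.48 (edgeR adjusted p = 0.0704). Of 11 other semaphorins tested, Sema4c, a membrane-bound ligand, was called higher (0.79, edgeR adjusted p = 0.0475) and 0 were called lower. Sema5a, Sema6a and Sema4b, with the highest levels there, were not called. Of 7 plexins tested, Plxna3 was called higher (0.81, edgeR adjusted p = 0.0348). Plxna1 changed by 0.44 (edgeR adjusted p = 0.0289), under the fold threshold, and Plxnb2, at 358 ± 17.0 and 369 ± 21.6 CPM (mean ± SD, n = 4 each), by 0.05. Mical1, Mical2 and Mical3, enzymes that act on actin downstream of plexins, were called higher with log2 fold changes of 0.67, 1.18 and 1.06 (adjusted p = 0.0200, 0.0270 and 0.0215, edgeR), 3 of 6 signal transducers tested. Dpysl2 was not called. Without S1 and S2 the log2 fold changes were 0.93 for Sema4c, 0.68 for Plxna3 and 0.60 for Mical1, and these 3 were not called.

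Of the VEGF ligands and receptors, which share the neuropilins, 2 of 7 tested were called higher. Vegfa was 903, 924, 1199 and 364 CPM in S1 to S4 and 1758, 1745, 1754 and 1262 CPM in S5 to S8, a log2 fold change of 0.94 (edgeR adjusted p = 0.0478). Pgf, a ligand of the receptor Flt1, had a log2 fold change of 1.57 (edgeR adjusted p = 0.0172), and Vegfb was not called (0.12, edgeR adjusted p = 0.670). Without S1 and S2, in a fit with fewer libraries, the log2 fold changes were 1.07 for Vegfa and 1.27 for Pgf, and neither was called (adjusted p = 0.108 and 0.0735, edgeR).

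Ntrk2, which encodes the BDNF receptor TrkB, had at most 35 reads in any library. Of 4 neurotrophin receptors tested 1 was called lower and 0 higher. Sorcs2, a sorting receptor for proneurotrophins, fell from 3.89 ± 1.93 to 0.607 ± 0.206 CPM (mean ± SD, n = 4 each), a log2 fold change of -2.68 (edgeR adjusted p = 0.0117), and was called in each fit that left out 1 library. Sort1, with the highest level of these receptors, was not called (-0.06, edgeR adjusted p = 0.936).

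In the GDNF family, Ret, the signaling receptor of its ligands, had 0, 4, 6 and 1 reads in S1 to S4 and 39, 71, 70 and 23 in S5 to S8, a log2 fold change of 4.11 (± 1.09 SE, edgeR adjusted p = 0.0242). Pspn, a ligand of the family, had 87, 15, 50 and 140 reads in S1 to S4 and 1, 0, 10 and 9 in S5 to S8, a log2 fold change of -3.78 (edgeR adjusted p = 0.0391). Both rest on few reads, and Pspn kept its call in 2 of 8 fits that left out 1 library, Ret in 4 of 8. Gdnf and Artn, the ligands with the highest levels, were not called.

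By the mean absolute difference of log2 CPM profiles over the 8 libraries, each centred on its own mean, the genes of the whole table nearest to Slit2 were Nav1 (0.083) and Rbpj (0.088). Those nearest to Ntn1 were Atf7 (0.126) and Pappa1 (0.131), to Sema3c Inpp4a (0.090) and Zc3h12a (0.098), and to Nrp2 P4ha1 (0.081) and Utrn (0.087). Sema3e lay nearest to Plcb3 (0.070) and Cav2 (0.071), and Bdnf to Calu (0.038) and Heatr5a (0.048). The low and variable members had no gene so close: the nearest to Nrp1 was Spata6l (0.234), to Sema3d Smoc1 (0.318) and to Sema3a Lrrc39 (0.452).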

How the data were processed

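RNA-seq covered 4 Sirt6-Ctrl and 4 Sirt6-KD libraries of rat NP cells, sequenced by Azenta. The submitters' processing notes name Trimmomatic 0.36, STAR 2.5.2b, featureCounts of Subread 1.5.2 and DESeq2, on Rnor_6.0; strand and settings were not given in the sources used here. Raw counts for 32975 Ensembl genes and ERCC spike-ins (92 rows) were deposited, with a table by the authors of 13612 rows holding gene names, normalized signal (counts divided by 1 size factor per library) and log2 fold changes and p-values of the authors' own comparison, from which only the names were used here. A symbol with several rows was taken at its highest total count.

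Counts were filtered with filterByExpr of edgeR 4.0.16 (R 4.3.3), normalized by TMM and put through the two-sided quasi-likelihood test, and p-values of the 13313 rows that passed were adjusted after Benjamini and Hochberg. Levels are CPM of the TMM-scaled library, with the SD over 4 libraries. Standard errors are the log2 fold change divided by the root of the F statistic. The 95% confidence intervals come from those standard errors, so they and the p-values measure the spread between these libraries, which may be technical in part. The study's methods give 4 independent experiments for the RNA. The floor of 3 counts covers counting error only, and reads are not independent molecules. The code was tested on simulated data. Alternatives used DESeq2 1.42.0, limma-voom (limma 3.58.1), other filters, scalings and thresholds, and left libraries out.

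The members, lists and tests were chosen with earlier results of these data known. Genes named are the members, Sirt6, and listed genes that were called or in the top quartile of their list by level, with the 2 nearest genes of the table per member. A few further genes (Ntrk2, Slit3, Neo1, Sema3f and Dcc, and the ratios to Unc5b) were named after their values were seen.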

Additional observations from a re-analysis of the deposited data

Results flagged for a closer look

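In groups of 4 libraries, 1 library was marked far from the others by Dixon's criterion, the gap to its nearest neighbour as a share of the whole range. Of 52 groups examined, 5 held such a library, where 1 in 20 by chance gives about 3. In Sirt6-Ctrl, S3 was the highest for Slit2 (gap 0.829 of the range) and for Pgf (0.880), and S2 was the lowest for Unc5c (0.830). In Sirt6-KD, S8 was the highest for Nrp1 (0.896) and the lowest for Vegfa (0.975). Without S3 the log2 fold change of Slit2 was 2.21.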

How the results depend on the processing

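No member was called lower under any alternative run. The number of members called higher, 4, became 1 with glmTreat against a fold change of 1.5 and 0 with spike-in scaling, and ranged from 2 to 5 with 1 library left out. The listed pathway genes called higher, 16, became 1 with glmTreat, 0 with spike-in scaling and 8 without S1 and S2, and ranged from 4 to 21 with 1 library left out. Those called lower, 4, became 0 with glmTreat and 0 with spike-in scaling, and ranged from 1 to 4. Over all 13250 genes, 1063 were called higher and 1416 lower by the main rule. These became 92 and 185 with glmTreat and 20 and 4 with spike-in scaling. The lowest pathway counts, higher and lower, came without S5 and without S6, and the lowest for genes called lower also without S7. Reversed signs were those of Nrp1 without S1 and S2 (-0.15), and of Bdnf with spike-in scaling (0.83) and without S4 (0.0163, in a range of -0.1407 to 0.0163 with 1 library left out). Over the alternatives for single members 129 kept direction and call, 17 lost the call and 3 gained it. RLE normalization, no filter, a stricter filter, DESeq2, limma-voom, the adjusted p alone and removing spike-in rows gave 4 or 5 members called higher. No paired analysis was possible because neither the labels nor the headers give a number that would match a knockdown library to a control. Sema3a and Ntrk2 had few reads and a wide spread between libraries, and the part of depth was not tested.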

Other observations

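S4 and S8 were the highest libraries of their groups for 4 of the 9 members, Bdnf, Sema3d, Nrp1 and Nrp2. For Ntn4 they were the highest too, with 4568 reads in S4 and 2766 in S8 against 155 to 771 in the other controls and 830 to 972 in the other knockdown libraries. The share of all genes with S4 and S8 both highest was not counted. No label ties S4 to S8, and the pattern was not tested.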
